A study of Mus musculus with 2 samples.

Results

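The genes described are the microtubule motors of the mouse neural tube at embryonic day 14.5: the kinesins, the kinesin light chains, and the subunits of dynein and dynactin. They were chosen by mouse gene symbol, with no threshold on a measured value, and 61 of 43346 gene rows carried a matching symbol. The symbols comprised 41 kinesin heavy chain genes, 4 kinesin light chain genes, 8 genes of cytoplasmic dynein 1, 2 of dynein 2 and 6 of dynactin. Among the heavy chains, 9 motors of axonal transport were compared with 12 motors of mitosis.

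Total RNA was sequenced from 1 group of 2 libraries, both of B6NCrl embryos aged 14.5 days. Replicate 1 was the neural tube of pup 1 of the first pregnant female and replicate 2 that of pup 1 of the second, although the labels also give the sex as pooled male and female. Each library was made from 10 ng of RNA with spike-in RNA added, by a protocol that the labels name for Smart-seq. No treatment, mutation or second group was included. With a single group there was no contrast between conditions and no p-value, and a difference between the replicates describes these 2 libraries only.

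Kinesins and dynein are motors that use ATP to walk along microtubules. Most kinesins walk towards the plus end, which in an axon points away from the cell body, whereas cytoplasmic dynein walks towards the minus end and needs dynactin for long movements with cargo. Axons depend on both directions of transport throughout their growth, and dividing cells use a different set of kinesins to build the spindle, move chromosomes and separate the daughter cells.

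Replicate 1 held 33360108 expected counts and replicate 2 held 26025302. Marker genes were read beside the tissue label. All 8 neuron markers and all 8 neural progenitor markers reached 1 TPM (transcript abundance corrected for length and scaled to the same total in each library) in both libraries, and so did all 12 markers of dividing cells. Reaching 1 TPM does not test the label, since all 5 endothelial, 5 microglial and 6 erythroid markers did so too. So did 4 of 5 skeletal muscle markers. The libraries differed in markers of tissues next to the neural tube. The summed level of 9 markers of dorsal root ganglion neurons was 89.4 TPM in replicate 1 and 436 TPM in replicate 2, and 8 of the 9 exceeded 1.5-fold in that direction, although Prph, Isl2 and Calca are also known from motor neurons. The sum of 8 markers of meninges and fibroblasts was 62.7 TPM and 1053 TPM, and all 8 were higher in replicate 2 by that fold. No marker of these 2 lists had 0 counts in either library.

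Of the 61 motor genes, 53 reached 1 TPM in both libraries. The background was 60.8% of the 21474 protein-coding gene rows. TPM is scaled per length of transcript, so that levels of different genes may be compared. The 8 genes that did not reach 1 TPM in both were Klc3, Kifc1, Kif18b, Kif19a, Kif14, Kif12, Kif28 and Kif2b. Kif12 had 7 counts in replicate 1 and 1 in replicate 2. Kif28 had 0 counts and 1 count, and Kif2b had 0 in both, where a count of 0 allows up to 3 in a library of this depth.

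The axonal transport kinesins stood far above the mitotic kinesins. All 9 axonal motors and 9 of the 12 mitotic motors reached 1 TPM in both libraries. The median axonal motor was at 114 TPM in replicate 1 and 124 TPM in replicate 2 (119 ± 6.94, SD, n = 2). The median mitotic motor was at 2.2 TPM and 2.90 TPM (2.55 ± 0.49). On the log2(TPM + 1) scale the axonal median exceeded the mitotic median by 5.19 in replicate 1 and by 5.01 in replicate 2, a mean difference of 5.10 ± 0.13 (SD, n = 2). The 9 axonal motors summed to 1165 ± 10.4 TPM and the 12 mitotic motors to 37.6 ± 10.4 TPM. In each library 8 of the 9 axonal motors lay above the highest mitotic motor. The exception was Kif1c, a kinesin-3 motor found in many tissues, at 2.42 TPM and 2.66 TPM. The separation depends on the lists as set. A mitotic list widened by Kif2a, counted here among the other kinesins at 42.8 TPM and 37.8 TPM, was not run. Kif2a was above the axonal motor Kif3b in each library. In bulk RNA, fewer cells of a type and less RNA per cell cannot be told apart.

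**Figure D1:**
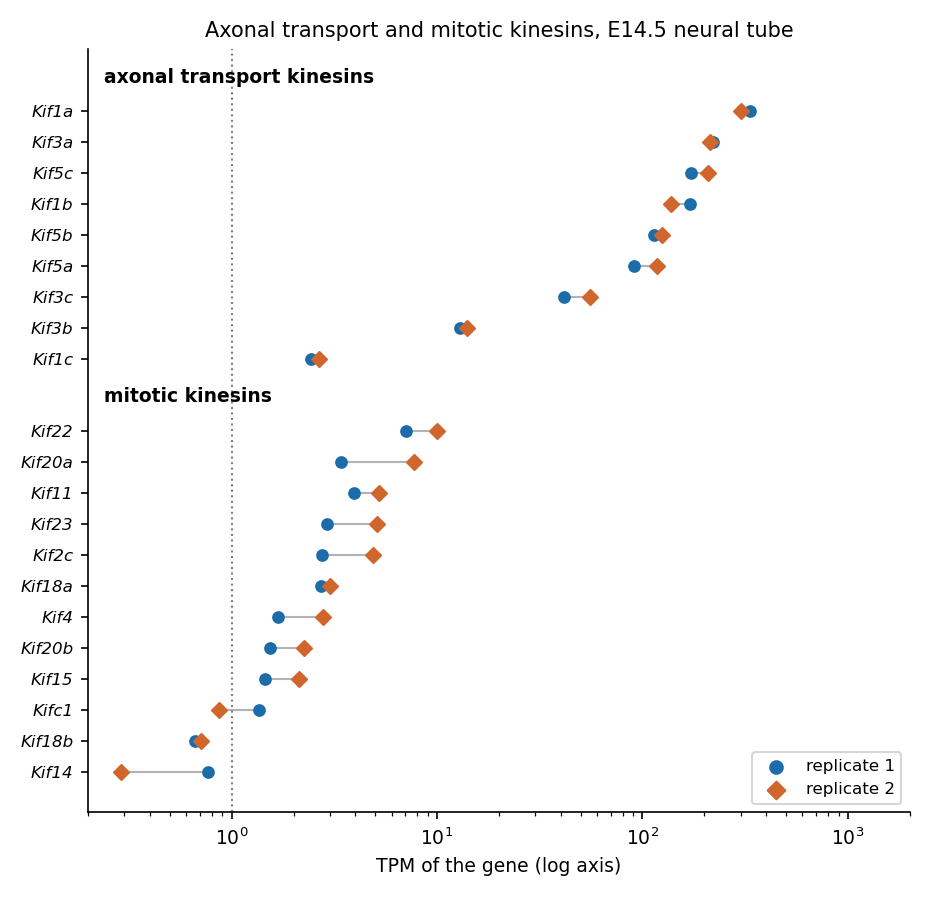
TPM of each axonal transport and mitotic kinesin in replicate 1 (circles) and replicate 2 (diamonds) on a log axis, joined by a line, with 1 TPM dotted. Apart from Kif1c, every axonal motor lies to the right of Kif22, the highest mitotic motor.

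Kinesin-1 is a tetramer of 2 heavy chains, which carry the motor, and 2 light chains, which bind cargo. The heavy chain Kif5c, known as enriched in neurons, was at 173 TPM in replicate 1 and 207 TPM in replicate 2. Kif5b, the form found in most cell types, was at 114 TPM and 124 TPM. Kif5a, the other neuronal form, was at 90.7 TPM and 118 TPM. Kif5c was thus the highest of the 3 in each library, by 1.51-fold and 1.67-fold over Kif5b and by 1.91-fold and 1.76-fold over Kif5a, while the gene levels of Kif5a and Kif5b overlapped between libraries. In complete coding transcripts alone, described below, Kif5b was at 50.4 TPM and 55.4 TPM, below Kif5a in each library.

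The light chains were led by Klc1, the form best known from neurons, at 474 TPM and 547 TPM. Klc1 exceeded Klc2 7.02-fold in replicate 1 and 7.17-fold in replicate 2. Klc2 was at 67.4 TPM and 76.4 TPM, Klc4 at 21.9 TPM and 26.1 TPM, and Klc3, known mainly from the testis, at 0.99 TPM and 1.77 TPM. By gene level the 3 heavy chains together were at 0.67 and 0.69 of the summed light chains (0.68 ± 0.01, SD, n = 2). This share was not computed for complete coding transcripts, where Kif5b was lower and Klc2 was at 49.5 TPM and 52.8 TPM.

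Kinesin-2 pairs Kif3a with either Kif3b or Kif3c and binds the accessory subunit Kifap3, and it serves both axonal and ciliary transport. Kif3a was at 219.5 TPM in replicate 1 and 213 TPM in replicate 2. Its partners were lower. Kif3c, the partner enriched in neurons, was at 41.7 TPM and 55.2 TPM, and Kif3b was at 12.96 TPM and 14.03 TPM. Kif3c exceeded Kif3b in each library, 3.22-fold and 3.94-fold, but 2617 exonic bases of Kif3c are shared with the gene 1110002L01Rik on the opposite strand, which was at 23.6 TPM and 24.1 TPM. Kifap3 was at 141 TPM and 130 TPM. The sources used here do not state whether counting used strand, so reads of such overlapping genes cannot be told apart.

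Kinesin-3 includes Kif1a and Kif1b, which carry precursors of synaptic vesicles. Kif1a (chromosome 1, 93015464 to 93101951, minus strand, GRCm38) had the highest gene level of any kinesin heavy chain, 333 TPM in replicate 1 and 301 TPM in replicate 2. Kif1b was at 170 TPM and 138 TPM. These 2 values depended strongly on short transcript models. In Kif1a, complete coding transcripts, those that the annotation gives with both ends of the coding sequence, held 33.5% and 31.6% of the gene's TPM (112 and 94.9 TPM). An incomplete coding model of 528 bases alone held 151 TPM and 150 TPM. In Kif1b, complete coding transcripts were at 88.1 TPM and 102 TPM, higher in replicate 2, whereas the gene value was higher in replicate 1. A retained-intron model of 2980 bases in Kif1b was at 26.2 TPM and 4.5 TPM.

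The 2 known forms of Kif1b differ in their tails, and so in their cargo. The long form, of 1816 residues and known for synaptic vesicle precursors, was at 82.2 TPM and 92.9 TPM. The short form, of 1150 residues and known for mitochondria, was at 5.95 TPM and 9.13 TPM.

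Across the 33 motor genes at 10 TPM or more in both libraries, 21 had over 90% of their TPM in complete coding transcripts in both. In 5 genes the share was under 50% in both: Dynll1, Kif1a, Kif5b, Dync1h1 and Dctn6. In Kif5b an incomplete coding model of 2006 bases held 59.9 TPM and 63.2 TPM, above the complete transcript at 50.4 TPM and 55.4 TPM. Counted on complete coding transcripts, an alternative chosen after seeing the data, the order of the axonal motors changed. Kif5c was then highest (190 ± 24.3 TPM), followed by Kif3a (143 ± 0.28), Kif5a (104 ± 19.3), Kif1a (103 ± 11.8), Kif1b (95.1 ± 9.84), Kif5b (52.9 ± 3.52), Kif3c (48.5 ± 9.57), Kif3b (13.5 ± 0.76) and Kif1c (2.54 ± 0.16; SD, n = 2 throughout). The ranges of Kif5a, Kif1a and Kif1b overlapped one another, as did those of Kif5b and Kif3c. The axonal median remained above the mitotic median, by 4.75 on the log2(TPM + 1) scale.

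**Figure D2:**
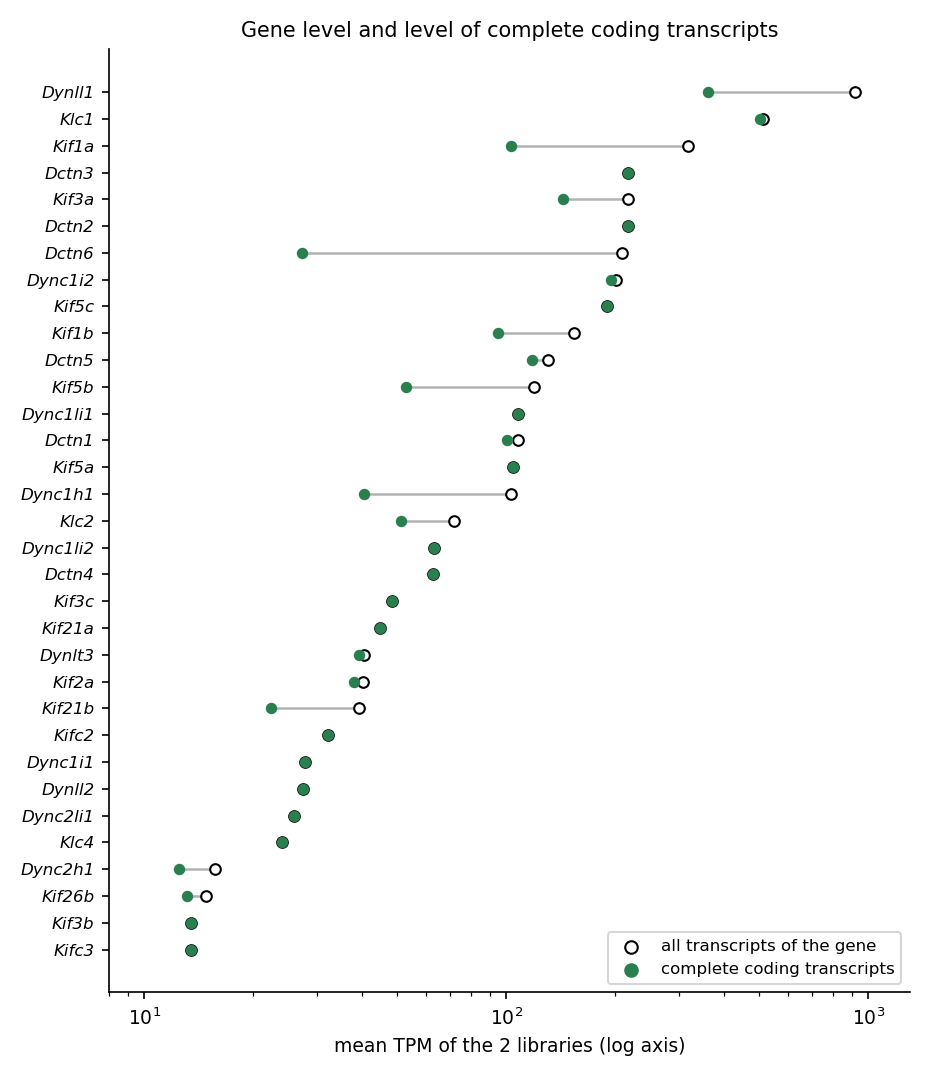
Mean TPM of the gene (open circles) and of its complete coding transcripts (green points) on a log axis, for the 33 motor genes at 10 TPM or more in both libraries. The longest gaps are in Dctn6, Kif1a, Dynll1, Dync1h1 and Kif5b, and in most other genes the points nearly coincide.

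Cytoplasmic dynein 1 is built around a pair of heavy chains, Dync1h1, with intermediate, light intermediate and light chains. All 8 of its genes measured here were above 20 TPM in both libraries. Dync1h1 was at 87.1 TPM in replicate 1 and 118 TPM in replicate 2. Its single complete transcript (gene on chromosome 12, 110601452 to 110666945, GRCm38), of 14342 bases and 4644 residues, was at 37.9 TPM and 42.8 TPM, because a retained-intron model of 427 bases held 43.7 TPM and 56.2 TPM. Of the intermediate chains, which bind dynactin, Dync1i2 was at 181.5 TPM and 219 TPM and Dync1i1, known as the neuronal form, at 24.98 TPM and 30.66 TPM. Dync1i2 exceeded Dync1i1 7.27-fold in replicate 1 and 7.16-fold in replicate 2. Of the light intermediate chains, which bind cargo adaptors, Dync1li1 was at 111 TPM and 105 TPM and Dync1li2 at 52.2 TPM and 74.0 TPM. The first exceeded the second in each library, 2.12-fold and 1.42-fold.

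The light chain Dynll1, a hub protein that also binds many proteins outside dynein, had the highest level of all 61 genes. It was at 912 TPM and 929 TPM, of which complete coding transcripts held 343 TPM and 378 TPM. On complete coding transcripts Klc1 was the highest of the 61 genes instead (501 ± 49.8 TPM, SD, n = 2). Dynll2, a close relative that shares the structure of Dynll1, was at 30.0 TPM and 24.9 TPM, and Dynlt3 at 39.3 TPM and 41.4 TPM.

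Dynactin joins dynein to its cargo and to the microtubule. Its 6 genes in the set lay between 62.9 and 217 TPM in mean gene level. The subunit of the shoulder Dctn2 was at 208 TPM in replicate 1 and 224 TPM in replicate 2. Dctn3, another shoulder subunit, was at 222 TPM and 212 TPM. Dctn1, which encodes p150Glued and binds microtubules, was at 96.0 TPM and 120 TPM. Of the subunits of the pointed end, Dctn4 was at 60.7 TPM and 65.0 TPM, Dctn5 at 128 TPM and 132 TPM, and Dctn6 at 217 TPM and 202 TPM. Dctn6 departed most from its coding level, since complete coding transcripts held 28 TPM and 26.7 TPM, and retained-intron models of 769 and 501 bases held most of the rest.

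**Figure D3:**
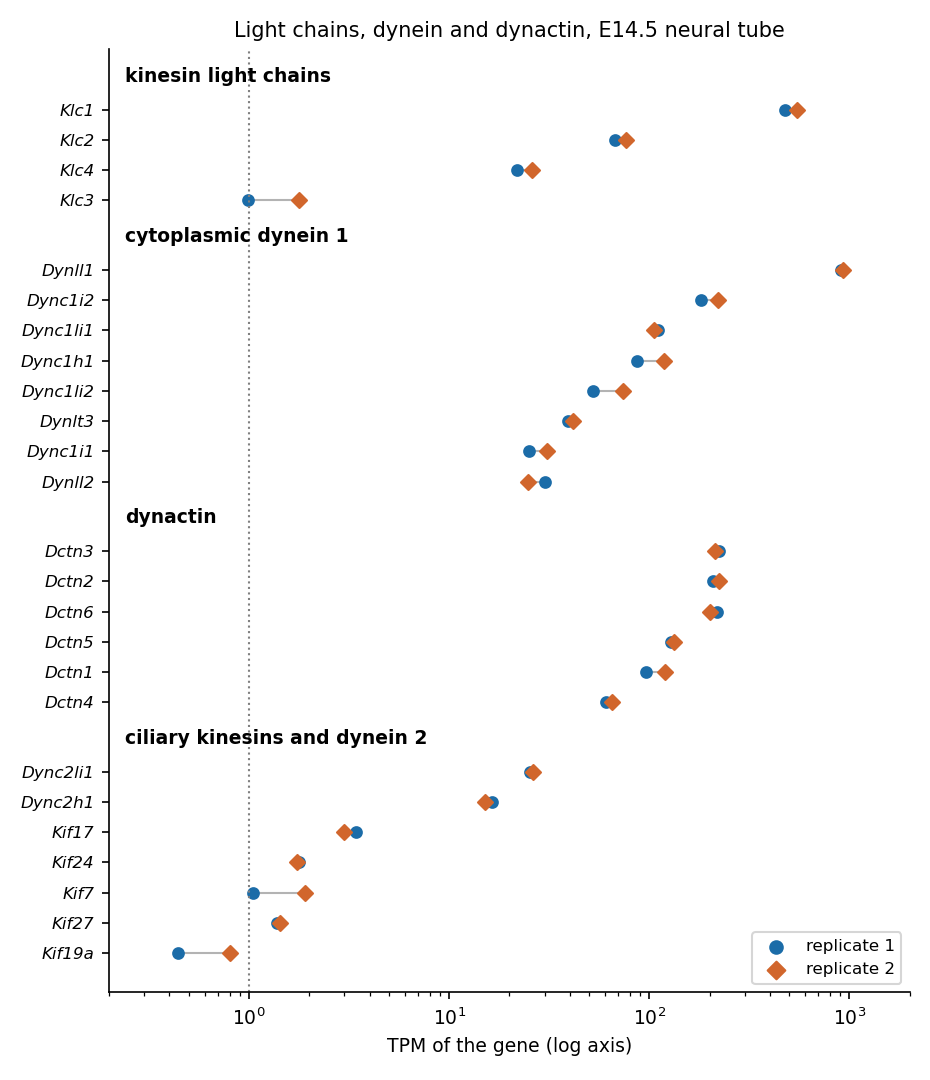
TPM of the light chains of kinesin-1, cytoplasmic dynein 1, dynactin, and the ciliary kinesins with dynein 2 in replicate 1 (circles) and replicate 2 (diamonds) on a log axis, with 1 TPM dotted. All genes of dynein 1 and dynactin lie above 20 TPM, and Dynll1 lies highest.

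Cilia, which vertebrate neural progenitors use to receive Hedgehog signals, have their own dynein. Of its 2 genes in the set, the light intermediate chain Dync2li1 was at 25.5 TPM in replicate 1 and 26.3 TPM in replicate 2. The heavy chain Dync2h1 was at 16.41 TPM and 15.02 TPM. Of this, a model of 916 residues held 7.71 TPM and 7.19 TPM, and the models of 4306 residues held 4.31 TPM and 5.24 TPM. The 5 kinesins of the ciliary list were lower. Kif17, a kinesin-2 motor of cilia and dendrites, was at 3.41 TPM and 2.99 TPM, of which complete coding transcripts held 0.57 TPM and 0.52 TPM. Kif24, which restrains the assembly of cilia, was at 1.77 TPM and 1.74 TPM. Kif7, a regulator of Hedgehog signalling at the ciliary tip, was at 1.05 TPM and 1.90 TPM, its relative Kif27 at 1.38 TPM and 1.43 TPM, and Kif19a, which shortens motile cilia, at 0.44 TPM and 0.80 TPM.

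Of the 15 remaining kinesins, 12 reached 1 TPM in both libraries. The highest were Kif21a and Kif21b, kinesin-4 motors that restrain microtubule growth, and Kif2a, a kinesin that takes microtubule ends apart. Kif21a was at 43.1 TPM and 46.3 TPM, Kif2a at 42.8 TPM and 37.8 TPM, and Kif21b at 43.1 TPM and 35.3 TPM. The range of Kif21b overlapped that of each of the other 2, but on complete coding transcripts Kif21b was at 22.4 ± 3.77 TPM (SD, n = 2), below Kifc2. The exons of Kif2a share 1229 bases with Dimt1 on the opposite strand. Kifc2, a neuronal kinesin with its motor at the C-terminal end, was at 36.7 TPM and 27.9 TPM.

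Kif26b was at 14.4 TPM and 15.3 TPM, and its relative Kif26a at 3.49 TPM and 2.88 TPM. Kifc3 was at 12.2 TPM and 14.7 TPM and Kif13a at 5.83 TPM and 7.99 TPM. The endosomal motor Kif16b was at 2.79 TPM and 3.20 TPM and Kif13b at 2.46 TPM and 2.22 TPM. Kif6 and Kif9, known from motile cilia, were at 2.39 and 2.72 TPM and at 2.44 and 2.46 TPM.

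A list of 41 partners, regulators and cargo adaptors outside the symbol rule was measured in the same way, and 40 of them reached 1 TPM in both libraries. The highest were Dynlt1b, a dynein light chain (1081 and 1091 TPM), and Dynlrb1, another (702 and 626 TPM). They were followed by Actr1a, the actin-related protein of the dynactin filament (250 and 280 TPM), Dynlt1a (283 and 241 TPM) and Dynlt1f (230 and 231 TPM). The Dynlt1 genes are near-identical copies, so how reads were divided among them is uncertain.

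Alternative exons were read from the transcript tables as inclusion, the share of a gene's protein-coding TPM, among transcripts that hold the exon or span it with an intron, in those that hold it. In the 33 genes at 10 TPM or more, 42 internal coding exons could be evaluated, and 16 had an inclusion between 10% and 90% in both libraries with at most 20 points between them. The transcript structures matched the lengths in the files for 11 of these exons, in 7 genes. Of the 11, 10 had a length that is a multiple of 3, as did most of the 42. The other 5 of the 16 were left out and were all in Kif21a. The exons below are those that lay wholly in coding sequence in complete transcripts, without the Kif1a exon of 279 bases, left out for its length. They are given 5′ to 3′ on the gene's strand from GENCODE release 21 for GRCm38 (mm10), with the exon in capitals and 15 bases of the neighbouring exon in lower case on each side.
Dync1i1 exon of 60 bases, chr6:5784439-5784498, plus strand: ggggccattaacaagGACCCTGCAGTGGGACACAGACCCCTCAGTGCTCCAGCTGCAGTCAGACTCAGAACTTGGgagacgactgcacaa
Dync1i2 exon of 60 bases, chr2:71233649-71233708, plus strand: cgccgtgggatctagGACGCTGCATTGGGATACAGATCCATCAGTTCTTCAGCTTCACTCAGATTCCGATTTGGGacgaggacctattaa
Dync1i2 exon of 18 bases, chr2:71227827-71227844, plus strand: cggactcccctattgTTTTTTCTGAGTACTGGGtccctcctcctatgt
Dctn1 exon of 15 bases, chr6:83197319-83197333, plus strand: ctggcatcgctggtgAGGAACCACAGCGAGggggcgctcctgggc
Kif1a exon of 24 bases, chr1:93026832-93026855, minus strand: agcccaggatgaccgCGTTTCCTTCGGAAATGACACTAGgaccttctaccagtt
Kif1a exon of 27 bases, chr1:93065552-93065578, minus strand: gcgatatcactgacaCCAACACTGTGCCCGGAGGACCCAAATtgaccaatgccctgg
Kif2a exon of 114 bases, chr13:106969704-106969817, minus strand: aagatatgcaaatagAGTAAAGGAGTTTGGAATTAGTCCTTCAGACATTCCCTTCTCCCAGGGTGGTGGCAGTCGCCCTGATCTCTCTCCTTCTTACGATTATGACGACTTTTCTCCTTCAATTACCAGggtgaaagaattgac

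The 60-base exons of the 2 dynein intermediate chain genes were included at like levels. Inclusion was 89.0% in both libraries for Dync1i1 and 85.6% and 86.9% for Dync1i2. The 2 exons share 46 of 60 bases (76.7% identity). The 18-base exon of Dync1i2 was held by a minority of its coding transcripts, 27.9% in replicate 1 and 30.4% in replicate 2. The 15-base exon of Dctn1 was included at 62.3% and 63.1% (62.7 ± 0.52, SD, n = 2).

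In Kif1a the 24-base exon was included at 69.1% and 71.7%. The 27-base exon was included at 10.7% and 10.2%, and so was an exon of 279 bases (chr1:93051403-93051681), since the expressed transcripts that hold either are one and the same. With non-coding transcripts counted as well, both were included at 6.5% on average. The Kif2a exon of 114 bases was included at 24.6% and 24.7%, or 15.2% on average by counts in place of TPM. A Klc1 exon of 51 bases (chr12:111793649-111793699), which lies where the light chains differ at their C-terminal end and is partly beyond the coding sequence, was included at 48.2% and 48.5%. Its transcript, of 560 residues, was at 225 TPM and 261 TPM, and one of 542 residues without the exon at 183 TPM and 207 TPM. The remaining exons were of 113 and 54 bases in Dctn6. They share an end and were included at 58.9% and 53.1% and at 33.2% and 13.7%, the last resting on an incomplete model. With non-coding transcripts counted the averages were 19.4% and 5.63%, and by counts the second was 7.88%. Between the libraries, inclusion differed by under 3 points in 9 of the 11 exons, both exceptions being in Dctn6. These shares are estimates from overlapping transcripts, and their error within a library is not given by 2 replicates.

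**Figure D4:**
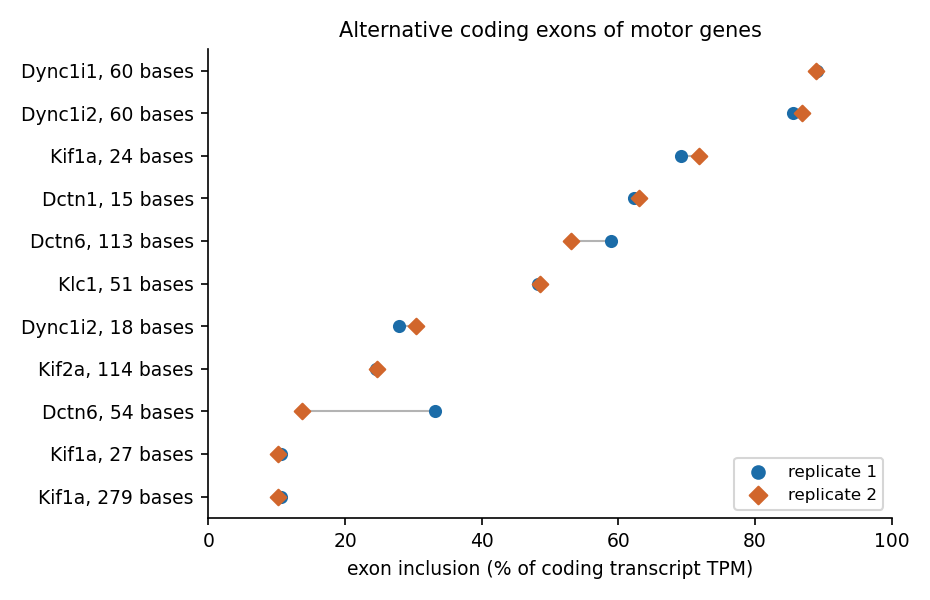
Inclusion of the 11 alternative coding exons, in percent, in replicate 1 (circles) and replicate 2 (diamonds). Apart from the 2 Dctn6 exons the libraries nearly coincide, from about 10% for the 27-base and 279-base exons of Kif1a to 89.0% for Dync1i1.

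The mitotic motors were few and low but were measured in both libraries. Kif22, which pushes chromosome arms, was the highest at 7.04 TPM in replicate 1 and 9.97 TPM in replicate 2. Kif20a and Kif23, motors of the central spindle and cytokinesis, were at 3.39 and 7.70 TPM and at 2.91 and 5.10 TPM. Kif11, which pushes the spindle poles apart, was at 3.96 TPM and 5.19 TPM, and Kif15, which supports it, at 1.46 TPM and 2.12 TPM. Kif2c, which removes tubulin at kinetochores, was at 2.76 TPM and 4.89 TPM. Each of these 6 genes was higher in replicate 2.

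Kif18a, which aligns chromosomes, was at 2.71 TPM and 3.02 TPM and its relative Kif18b at 0.66 TPM and 0.71 TPM. Kif4, a motor on chromosomes and the central spindle, was at 1.69 TPM and 2.77 TPM, and Kif20b, of cytokinesis, at 1.54 TPM and 2.26 TPM. Kifc1, which focuses spindle poles, was at 1.36 TPM and 0.87 TPM, and has near copies elsewhere in the genome. Kif14, of cytokinesis, was at 0.77 TPM and 0.29 TPM although its counts were 44 and 35, and a model of 280 bases held 0.39 TPM in replicate 1 and 0 in replicate 2.

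Ratios of replicate 2 to replicate 1 were taken from counts scaled to library size, with an exact 95% counting interval. Of the 58 motor genes whose mean count was 10 or more, 7 were higher in replicate 2 by 1.5-fold or more and 0 were higher in replicate 1 by that fold. The background was 10.7% and 8.47% of the 17610 genes with that count. The 7 were the mitotic motors Kif20a (ratio 2.13, interval 1.81 to 2.51), Kif2c (1.70, 1.36 to 2.13), Kif23 (1.64, 1.36 to 1.99) and Kif4 (1.53, 1.24 to 1.89), together with Kif7, Kif19a and the light chain Klc3. Kif7 had 94 and 127 counts (1.71, 1.30 to 2.26). Kif19a had 14 and 26 counts (2.31, 1.18 to 4.87), and Klc3 had 24 and 30 (1.58, 0.89 to 2.83), an interval that holds 1. From 10 to 100 counts, 2 of 7 motor genes, Kif19a and Klc3, and 21.3% of all genes were higher in replicate 2 by this fold. In the same range 0 motor genes and 22.8% of all genes were higher in replicate 1. Where the mean count was 100 to 1000, 5 of 21 motor genes and 11.7% of all genes were higher in replicate 2 by this fold. Higher in replicate 1 in that range were 0 motor genes and 5.25% of all genes. None of the 30 motor genes with a mean count of 1000 or more passed it in either direction, where few genes of any kind did: 2.35% and 1.27% of all genes from 1000 to 10000 counts, higher in replicate 2 and in replicate 1, and 0.55% and 1.10% above that.

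The median log2 ratio of the 12 mitotic motors was 0.42, beside -0.0048 for all genes with that count, and 10 of the 12 ratios were above 1. The median of the 9 axonal motors was 0.02. Within the axonal list the ratios ran from 0.81 for Kif1a (interval 0.79 to 0.83) to 1.24 for Kif3c (1.19 to 1.29), with Kif5a at 1.22 (1.19 to 1.25). Scaling by spike-in counts shifted every log2 ratio by 0.55. All 58 motor genes then had a ratio above 1, as did 15963 of the 17610 genes with that count. The medians were 0.97 for the mitotic and 0.57 for the axonal motors, beside 0.54 for all genes. With this scaling 27 motor genes passed 1.5-fold, all towards replicate 2, and the share of all genes past it was not computed.

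Marker lists were compared between the 2 libraries in the same way. The 12 markers of dividing cells had a median log2 ratio of 0.54, 11 of the 12 were higher in replicate 2, 4 by at least 1.5-fold, and their summed level was 216.5 TPM in replicate 1 and 287 TPM in replicate 2. None of them had 0 counts in either library. Neural progenitor markers were mixed: 5 of 8 were higher in replicate 2, 1 by at least 1.5-fold, with a median log2 ratio of 0.23. The markers of ganglion neurons and of meninges and fibroblasts given above, 8 of 9 and 8 of 8 past 1.5-fold, were higher in replicate 2 too. So were all 5 endothelial markers (summed level 74.9 and 175 TPM) and all 5 microglial markers (73.9 and 126 TPM). Skeletal muscle markers went the other way, with 5 of 5 lower in replicate 2 (39.7 and 20.7 TPM), and so did 7 of 8 neuron markers (4725 and 4558 TPM), but with spike-in scaling 1 of the 5 muscle markers and all 8 neuron markers were higher in replicate 2. Of 6 erythroid markers, 1 was higher in replicate 2 (summed level 10950 and 9338 TPM), and 5 were with spike-in scaling. The part of all these marker lists in the ratios of the mitotic motors was not tested. Kif20a shares 1271 exonic bases with Cdc23 on the opposite strand (81.6 and 95.6 TPM, ratio 1.10), Kif4 shares 832 with Pdzd11 (78.4 and 82.8 TPM, ratio 0.99), Kif7 shares 877 with 9330171B17Rik (1.64 and 1.22 TPM, ratio 0.70), and Klc3 shares 744 with Ercc2 (8.97 and 9.20 TPM, ratio 0.86). Without the 14 motor genes that share exonic bases with a gene at 1 TPM or more in at least 1 library, an alternative chosen after seeing the data, 3 genes were left past 1.5-fold (Kif2c, Kif23 and Kif19a) and the mitotic median was 0.41.

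Of the 40 partners whose mean count was 10 or more, 2 were higher in replicate 2 by 1.5-fold and 2 in replicate 1. The background was 10.7% and 8.47% of the 17610 genes with that count. Spdl1, a dynein adaptor at kinetochores, was higher in replicate 2 (1.09 and 2.41 TPM, ratio 2.11, interval 1.45 to 3.12), and so was Nde1, a dynein regulator of dividing progenitors (10.3 and 16.6 TPM, 1.52, 1.34 to 1.74). Higher in replicate 1 were Dynlrb2, a light chain known from ciliated cells (7.33 and 3.70 TPM, 2.09-fold, interval 1.28 to 3.63), and the mitochondrial adaptor Rhot2 (8.21 and 5.36 TPM, 1.52-fold, 1.24 to 1.87). With spike-in scaling Rhot2 had a replicate 2 to replicate 1 ratio of 0.96 and Dynlrb2 one of 0.70.

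**Figure D5:**
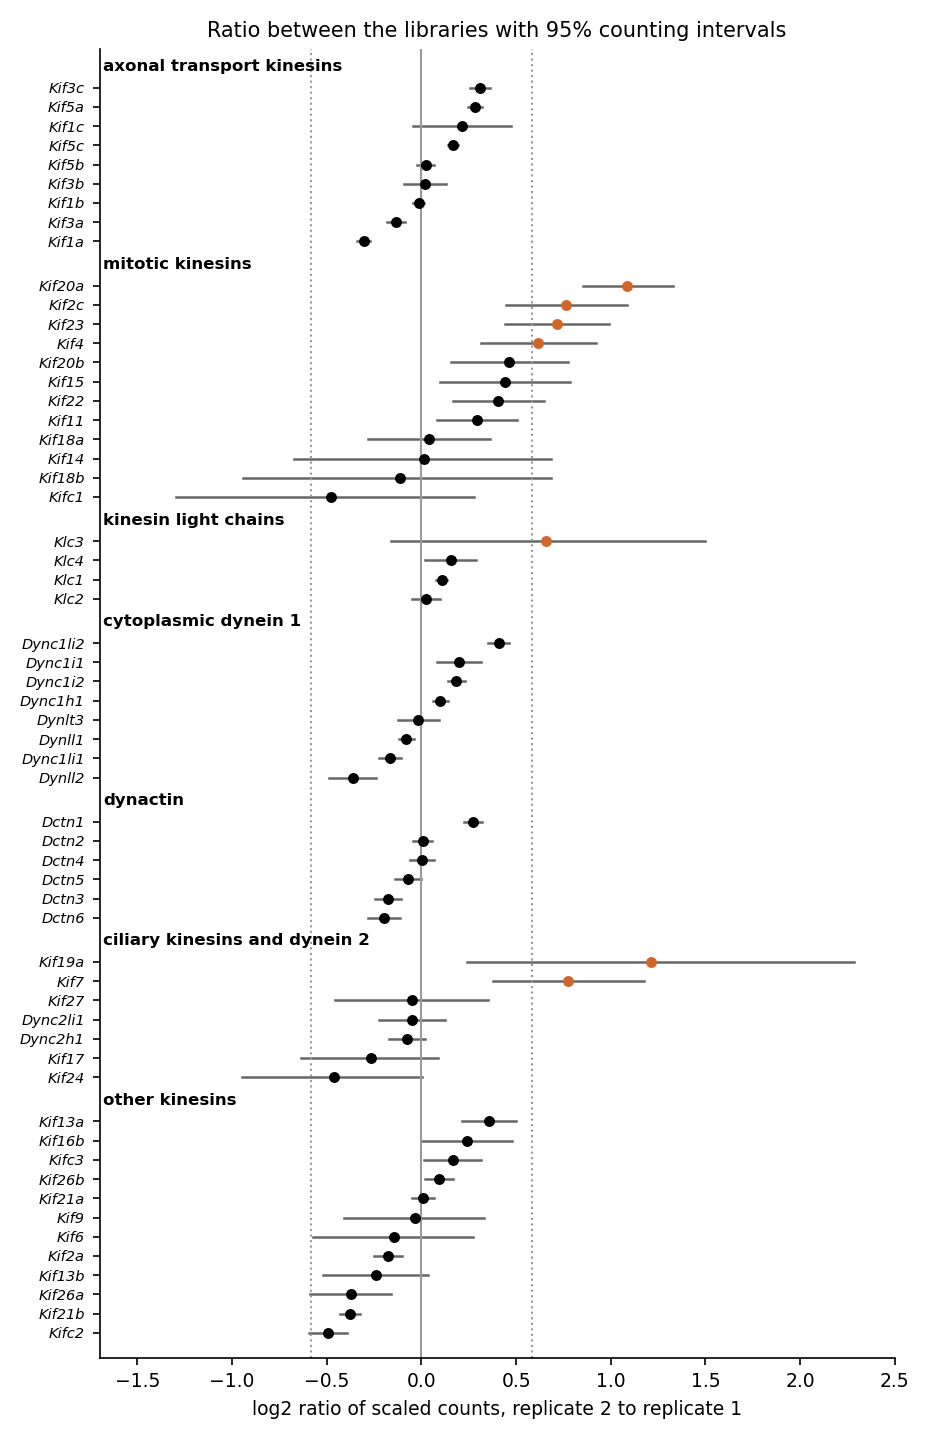
Log2 ratio of scaled counts, replicate 2 to replicate 1, for the 58 motor genes whose mean count was 10 or more, by list. Points are ratios, bars are exact 95% counting intervals, dotted lines mark 1.5-fold in either direction and coloured points lie past it, all 7 of them to the right.

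Promoters of the 2 kinesin lists were compared for letters known from genes that are active in dividing cells: TTTGAA, the core of the cell cycle homology region, and CCAAT, the core of sites of the factor NF-Y, each on either strand. The window ran from 250 bases before to 50 after the RefSeq start site. TTTGAA was found in 10 of 11 mitotic kinesin promoters (all but Kif18a, with none for Kif20a in the table), in 1 of 9 axonal kinesin promoters, from 7 genes, and in 17.9% of the 32851 promoters in the table. The axonal match was in a second promoter of Kif1a, 19471 bases inside the gene model. The Kif14 and Kif2c start sites also lay inside the gene, by 1505 and 3867 bases, whereas those of the other mitotic kinesins lay within 328 bases of its end. CCAAT was found in 7 of the 11 mitotic, 4 of the 9 axonal and 37.4% of all promoters. Both were found in 7 mitotic, 0 axonal and 6.95% of all promoters. In the promoters of the dividing cell markers, TTTGAA was found in 6 of 10 and CCAAT in all 10. In those of the neuron markers TTTGAA was found in 2 of 9 and CCAAT in 6 of 9. A match is a description of letters and not a site of binding.

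In 8 of the 11 mitotic promoters and 0 of the 9 axonal promoters a TTTGAA match began within 25 bases of the start site. The share of all promoters was 2.65%. The distance of 25 bases was not part of the comparison as planned. Of the promoters with a match anywhere in the window, it began this close in 8 of 10 mitotic kinesins and in 14.8% of all. The 8 promoters held 9 such matches, since Kif20b has a second at 14. They are shown, to compare their positions, in windows of 30 bases 5′ to 3′ on the gene's strand (RefSeq, GRCm38.p6), with each match or its reverse complement TTCAAA in capitals. Positions count from the start site, which is 1.
Kif11, first letter at -19, chr19:37376351-37376380: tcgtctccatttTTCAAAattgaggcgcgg
Kif15, first letter at -19, chr9:122951050-122951079: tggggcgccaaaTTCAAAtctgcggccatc
Kif22, first letter at -17, chr7:127042420-127042449: gggccccggtaaTTCAAAagagagaagcgg
Kifc1, first letter at 2, chr17:33890615-33890644: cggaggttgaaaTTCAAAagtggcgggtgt
Kif23, first letter at 3, chr9:61946780-61946809: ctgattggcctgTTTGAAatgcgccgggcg
Kif18b, first letter at 4, chr11:102925104-102925133: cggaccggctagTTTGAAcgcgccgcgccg
Kif20b, first letter at 8, chr19:34922353-34922382: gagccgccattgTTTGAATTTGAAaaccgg
Kif4, first letter at 20, chrX:100626072-100626101: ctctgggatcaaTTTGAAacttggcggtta

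The 100 bases before the Kif11 start site hold both motifs, shown in capitals: CCAAT on the other strand, from position -45, and TTTGAA on the other strand, from position -19.
Kif11 upstream, chr19:37376282-37376381, plus strand: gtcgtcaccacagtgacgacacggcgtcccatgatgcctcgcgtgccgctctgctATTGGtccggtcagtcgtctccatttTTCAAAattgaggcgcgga

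Kif23 (ratio 1.64) and Kif4 (1.53), both higher in replicate 2 by 1.5-fold, have such a match close to the start. So do Kif18b (0.93, interval 0.52 to 1.61) and Kifc1 (0.72, 0.41 to 1.21), whose intervals hold 1 and whose ratios were 1.35 and 1.05 with spike-in scaling. The other genes with a close match, Kif11 (1.23), Kif22 (1.33), Kif15 (1.36) and Kif20b (1.38), were under 1.5-fold. Kif2c (1.70) has its only match at -103, and for Kif20a (2.13) no promoter was available. Kif14 (1.01) has its only match at -228, and Kif18a (1.03) has none in the window.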

How the data were processed

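Total RNA of 2 neural tube libraries was read from the authors' gene and transcript tables. Per the file headers, the authors' expected counts estimate the reads of each row and are not normalised. The deposited TPM values are scaled per length and to 1 total per library, and the deposited FPKM values per length and depth, per the file headers. Per the accompanying texts, the build was mm10 and the annotation GENCODE release 4. Which aligner, quantifier and strand setting were used is not given in the sources used here. Symbols, exons and transcript classes came from GENCODE release 21 for GRCm38; 237 of 265 transcripts of the motor genes had the same length in both. Promoters came from RefSeq (GRCm38.p6).

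Expected counts were rounded. Ratios used TMM-scaled library sizes over gene rows (edgeR 4.0.16, R 4.3.3), a prior count of 0.5 and exact Clopper-Pearson intervals, which cover counting error only, since reads are not independent molecules. DESeq2 1.42.0 size factors and spike-in counts were alternatives. In counts simulated for replicate 2 against replicate 1, 94% of 100 genes set to a 2-fold change went past 1.5-fold, against 5.52% of 17389 unchanged genes. The simulation drew counts with a fixed, assumed spread between libraries. In the measured libraries 10.7% of genes passed this fold towards replicate 2 and 8.47% towards replicate 1. The simulated share is therefore not an error rate for these libraries. Python 3.11.15 was used elsewhere. All motor genes were accounted for. Named were all genes of the axonal, mitotic, light chain, dynein and dynactin lists, other kinesins at 1 TPM, the 5 highest partners and those past 1.5-fold. The genes, lists and tests were chosen with earlier results of these data known. Whether the 2 libraries are separate animals rests on the labels alone.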

Additional observations from a re-analysis of the deposited data

How the results depend on the processing

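No paired analysis was possible because the series has 1 group. The number of motor genes at 1 TPM ran from 47 (threshold of 2 TPM) to 56, with 50 on complete coding transcripts and 54 in each library alone. The axonal minus mitotic difference of 5.10 stayed above 0 under all alternatives run. It was 5.53 with a pseudocount of 0.1, 4.38 with means, 4.85 with FPKM and 4.97 with posterior mean TPM. It was 3.77 with the wider axonal list, 5.33 with the neuron-enriched list, 4.67 over members at 1 TPM and 4.75 on complete coding transcripts. Each library alone gave 5.19 and 5.01. No wider mitotic list was run. The 7 motor genes past 1.5-fold became 27 with spike-in scaling, 2 at 2-fold (Kif20a and Kif19a), 3 with TPM ratios and 3 without overlapping genes, all higher in replicate 2; without a count filter there were 9, of which 1 was higher in replicate 1. The mitotic median of 0.42 became 0.97 with spike-in scaling, and the axonal median of 0.02 became 0.57 with spike-in scaling, 0.062 with means and 0.11 with TPM ratios. With spike-in scaling the median of all genes was 0.54. Alternative exons numbered 36 instead of 11 when non-coding transcripts were counted, since these add short models that span or hold exons, 8 with counts in place of TPM, and 13 and 14 in each library alone. Of 33 other values of the inclusion of single exons, 16 moved by more than the SD of the libraries. Mitotic levels rest on 23 to 400 counts per gene and library, and differences under the counting intervals given were not detectable at this depth. DESeq2 size factors moved no count or median by more than its spread.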
